A study of Danio rerio with 6 samples.

Results

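The complement component C3 and alpha-2-macroglobulin (A2M) targets of zebrafish larvae were examined after irradiation of the embryo. They numbered 9 of the 37157 targets on the array. 2 of them, c3a.2 and c3a.6, were taken by the zebrafish symbol of their RefSeq mRNA identifier (NM_131243 and NM_001008582). The other 7 were every target that the supplementary list of altered targets of the study names C3 (4 targets) or A2M (3 targets), after the human homolog. Those 7 were selected on the same pools described here, by the study's own test (the methods' t-test) at an unadjusted p under 0.05 together with a change of at least 0.585 on the log2 scale. Their difference between the groups is what chose them, so it is described without a test, whereas c3a.2 and c3a.6 were not in that list and were tested. The absence of c3a.2 and c3a.6 means that the study's test had not called them on these pools. Not passing here was therefore partly given beforehand. Targets are named by the array's own identifier, since the sources used here do not say which of the zebrafish C3 or A2M copies each of the 7 measures.

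C3 is the protein on which the classical, lectin and alternative routes of complement activation converge. Its cleavage releases a small peptide that attracts and activates inflammatory cells, and leaves a large fragment that binds covalently to microbial surfaces through an internal thioester and marks them for uptake. A2M belongs to the same thioester protein family and inhibits proteases of plasma by closing around the enzyme that cuts it. Both are secreted mainly by the liver in vertebrates, and bony fish carry several copies of C3. The gene table of RefSeq lists 7 C3 copies in zebrafish, 5 of type c3a and 2 of type c3b. c3a.2 and c3a.6 are the 2 copies with a target under a RefSeq identifier. In the gene order of that table c3a.2 is next to c3a.3, and c3a.6 is next to c3a.5, which is followed by c3a.1. Probe sequences were not used here, so cross-hybridization between neighbouring C3 copies was not tested.

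Wild-type AB strain zebrafish were compared in 2 groups of whole larvae at 120 hours post fertilization (hpf). The 5 Gy group had been exposed in a cobalt irradiator at 26 hpf, and the 0 Gy group had been mock irradiated at that age. Each group held 3 pools of 50 larvae, numbered 1 to 3, with pools of a group from separate clutches. Total RNA of each pool was converted to cDNA and measured on 1 one-color NimbleGen array, with up to 12 probes of 60 bases per target. A pool's value for a target is the log2 intensity combined over its probes, and a difference of 1 on this scale is a 2-fold difference. Such values can be compared between pools for a target but not between targets. A whole larva mixes all tissues, so fewer cells of a type and less RNA per cell cannot be told apart. All 9 targets had a control mean above 6.97, the limit of the dimmest 25% of targets, and no filter removed any. None of the 11 liver markers chosen was among the targets with a zebrafish symbol. The tissue expected to make most C3 and A2M could therefore not be followed by those markers. Targets of a wider list of liver and plasma genes are described further below.

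The arrays had near-equal distributions, with a median intensity of 354.75 to 357.12. Across all targets 0 Gy pool 3 was nearer to 5 Gy pool 3 (r = 0.987) than to 0 Gy pools 1 and 2 (r = 0.897 and 0.905), while 0 Gy pools 1 and 2 were close to each other (r = 0.977). The median log2 ratio of 5 Gy over 0 Gy over all targets was -0.03, and the middle 50% of the targets lay between -0.32 and 0.24. By limma, 1500 targets (4.04%) passed the thresholds of the study, an unadjusted p under 0.05 and a change of at least 0.585, with 2.89% lower and 1.15% higher at 5 Gy. That count was 7126 without 0 Gy pool 3, 895 without 5 Gy pool 2, 308 without 0 Gy pool 1 and 310 without 0 Gy pool 2. Without 5 Gy pool 1 it was 1671. The smallest p after Benjamini-Hochberg adjustment over all targets was 0.0909 in limma, so every call below rests on unadjusted p-values.

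All 4 targets named C3 had lower signal in each 5 Gy pool than in any 0 Gy pool, at 48.6 to 60.8% of the control mean. The target OTTDART00000023872 differed most among them. It measured 8.60, 8.95 and 8.73 in 5 Gy pools 1, 2 and 3, and 9.79, 9.98 and 9.62 in 0 Gy pools 1, 2 and 3. The pools of each group lay close together, and the groups were far apart. Its log2 ratio was -1.04 (SE 0.269, n = 3 pools each), which is 48.6% of the control level. The target TC261494 measured 9.46, 9.03 and 9.41 in 5 Gy pools, and 10.21, 10.65 and 9.99 in 0 Gy pools. Pool 2 was the lowest at 5 Gy and the highest at 0 Gy. Its log2 ratio was -0.98 (SE 0.299, n = 3 pools each).

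The other C3 targets differed somewhat less. OTTDART00000013205 measured 10.14, 10.31 and 10.35 in 5 Gy pools, and 10.98, 10.78 and 11.43 in 0 Gy pools. The 5 Gy pools of this target were nearly equal (SD 0.114), and 0 Gy pool 3 was the highest of the 6. Its log2 ratio was -0.79 (SE 0.287, n = 3 pools each). ZV700S00004002 measured 10.21, 10.20 and 10.64 in 5 Gy pools, and 11.06, 11.25 and 10.90 in 0 Gy pools. Its groups came closest to each other in pool 3, and its log2 ratio was -0.72 (SE 0.278, n = 3 pools each), the smallest among the 7 selected targets. The 4 targets do not make 4 independent observations, since they may share an mRNA or hybridize with related copies.

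The 3 A2M targets, which stand for the broad protease inhibitor of plasma, were also lower in every 5 Gy pool than in any 0 Gy pool, with a median log2 ratio of -1.09 against -0.89 for the C3 targets. ZV700S00004956 measured 8.42, 7.65 and 8.78 in 5 Gy pools, and 9.78, 9.62 and 9.52 in 0 Gy pools. The controls of this target were tight (SD 0.131), the 5 Gy pools were spread widely (SD 0.578), and pool 2 was the lowest of all. Its log2 ratio of -1.36 (SE 0.345, n = 3 pools each), or 38.9% of the control level, was the most negative of the 9 targets. TC246970 measured 9.47, 9.56 and 9.76 in 5 Gy pools, and 10.78, 10.86 and 10.43 in 0 Gy pools. Both groups were tight, and its log2 ratio was -1.09 (SE 0.273, n = 3 pools each).

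ZV700S00004423 measured 12.57, 13.13 and 13.32 in 5 Gy pools, and 13.79, 13.67 and 13.79 in 0 Gy pools. Its controls were nearly identical (SD 0.0668) while the 5 Gy pools differed (SD 0.390), and pool 1 was the lowest. Its log2 ratio was -0.75 (SE 0.296, n = 3 pools each).

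**Figure D1:**
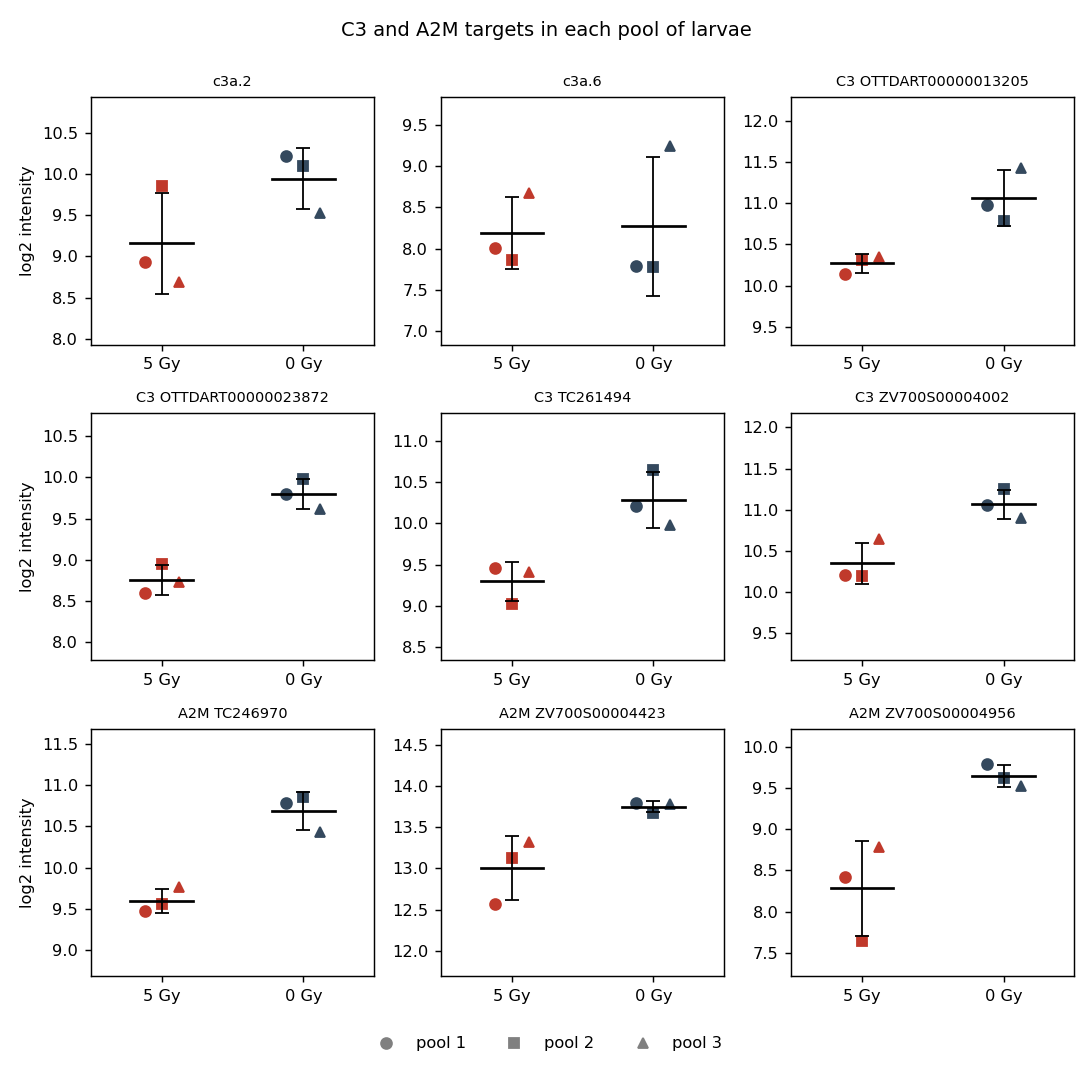
Log2 intensity of each C3 and A2M target (vertical axis, every panel spans 3 log2 units) in the 3 pools at 5 Gy (left, red) and the 3 pools at 0 Gy (right, blue). Symbols mark the pool number, the wide bar is the group mean and the whiskers are 1 SD. In the 7 panels headed C3 or A2M the groups do not overlap, whereas they overlap for c3a.2 and c3a.6.

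The selected targets were thus lower by a median of -0.98 in log2 ratio (range -1.36 to -0.72), or 50.6% of the control level. All 7 passed the thresholds in limma, where 2.89% of all targets did so in the lower direction, and all 7 had groups that did not overlap, which 4.7% of all targets showed in that direction. They also passed the methods' t-test, which 1.53% of all targets passed and 1% in the lower direction. These counts were fixed by the selection and carry no further weight. Only 4 of the 7 were called in limma without 5 Gy pool 1, without 0 Gy pool 1 or without 0 Gy pool 2. Near its limits, ZV700S00004002 was the selected target with the smallest ratio (-0.72), and c3a.2, with a ratio of -0.79 and overlapping pools, was outside.

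Neither of the 2 C3 copies identified by RefSeq passed the thresholds in limma, which their absence from the study's list had partly given beforehand. c3a.2 measured 8.93, 9.85 and 8.69 in 5 Gy pools 1, 2 and 3, and 10.21, 10.10 and 9.52 in 0 Gy pools. The groups overlapped, since 5 Gy pool 2 was above 0 Gy pool 3. The log2 ratio of c3a.2 was -0.79 (SE 0.381, n = 3 pools each, 95% interval -1.66 to 0.09), or 58.0% of the control level. That ratio is within the range of the 4 selected C3 targets, a range set in part by their selection on these pools. It did not pass in limma (p = 0.0720, adjusted p = 0.905), and the exact permutation test gave p = 0.2 (two-sided, smallest possible 0.1). With the replicate number as a block in limma, the ratio of c3a.2 was the same and passed at the unadjusted threshold (adjusted p = 0.567), whereas it did not pass when the methods' t-test was run on pairs. It also passed in limma without 5 Gy pool 2 (ratio -1.13) or without 0 Gy pool 3 (ratio -0.999), and with the median of probes (-0.92) or array weights (-1.22). In the blocked fit 8.81% of all targets passed, 5.19% in the lower direction. Of all 37157 targets, 895 passed without 5 Gy pool 2 and 7126 without 0 Gy pool 3. With the median of probes 1461 passed, and with array weights 10913 did.

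c3a.6 measured 8.01, 7.86 and 8.68 in 5 Gy pools, and 7.79, 7.78 and 9.24 in 0 Gy pools. Both pools numbered 3 were above the other 4, a pattern shared by 13.6% of all targets, and the groups overlapped throughout. The log2 ratio of c3a.6 was -0.09 (SE 0.456, n = 3 pools each, 95% interval -1.13 to 0.96). It did not pass in limma (p = 0.854, adjusted p = 0.981) or by the exact permutation test (p = 1, two-sided), nor with the block (p = 0.786, limma). That 95% interval, from the fit without the block, spans the whole range of ratios seen in the selected C3 targets. A fall of that size in c3a.6 was therefore not excluded by that fit, although the range itself was set in part by the selection on these pools. With the block the SE of c3a.6 was smaller, at 0.310. Without 0 Gy pool 3 the ratio of c3a.6 was 0.40, and without 5 Gy pool 2 it was 0.08, so its direction was not settled.

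Whether the change of c3a.2 differed from that of c3a.6 was tested within arrays, by the log2 signal of c3a.2 minus that of c3a.6 on the same array. This was 0.92, 1.99 and 0.01 in 5 Gy pools, and 2.42, 2.32 and 0.28 in 0 Gy pools. It was low in both pools numbered 3 and high in 0 Gy pools 1 and 2, so the groups overlapped. The difference between the groups was -0.70 (exact permutation p = 0.5, two-sided, 20 splits). That permutation took no account of the pool numbers. For each pool number the value was lower at 5 Gy, but the pairing is not established and a paired form was not tested. No difference in response between the 2 copies was resolved.

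The single probes gave a finer view of each target. Probes of 1 target were read on the same arrays from the same pools and are not replicates. Whether all probes of a target bind the same mRNA was not tested. Of the 82 probes of the 7 selected targets, 78 (95.1%) had a lower mean at 5 Gy, where 52.2% of all 385000 probes did. In 61 (74.4%) every 5 Gy pool was below every 0 Gy pool, where 4.23% of all probes showed this, and 69 (84.1%) were lower in all 3 pairs, against 14.3% of all probes. These shares follow from the selection of the targets and are descriptive. The A2M targets were the most uniform, with 36 of 36 probes lower, and all 12 probes of ZV700S00004956 separated the groups. Each of the 4 C3 targets had 1 probe that was not lower, up to 0.48 in TC261494.

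In c3a.2, which was not selected, all 11 probes were lower at 5 Gy, with a median difference of -0.76 (range -1.40 to -0.06). In 3 of the 11 the groups did not overlap. In c3a.6 the probes were divided, with 8 lower and 4 higher (range -0.61 to 0.86), and none of the 12 had every 5 Gy pool below the controls. 6 of the 12 c3a.6 probes were highest in both pools numbered 3, a pattern found in 13.9% of all probes, whereas none of the 11 c3a.2 probes was.

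**Figure D2:**
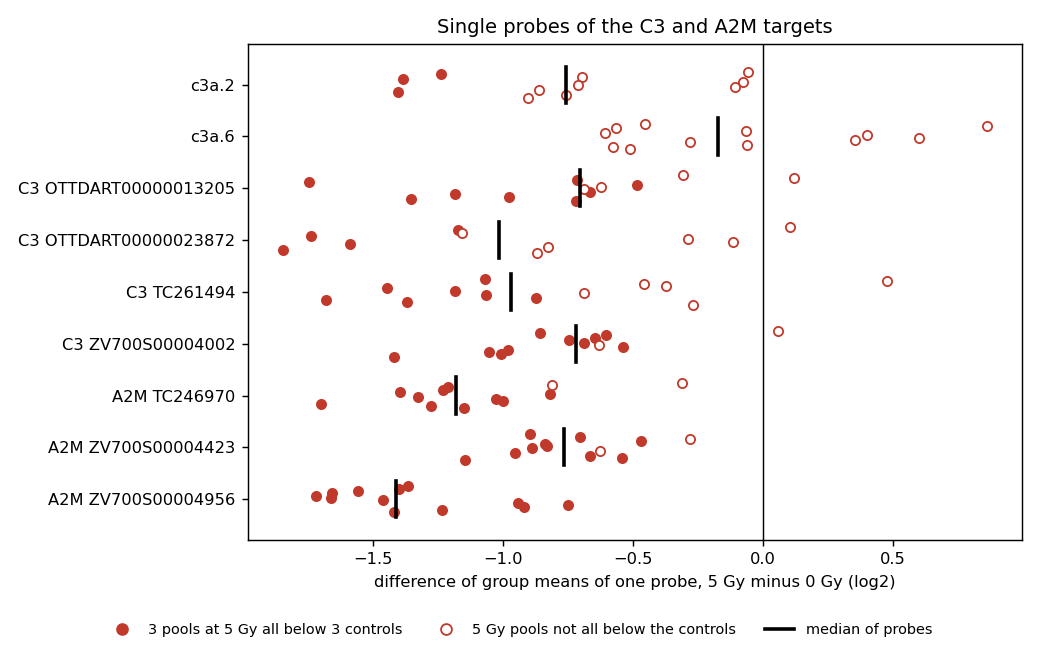
Difference between group means (5 Gy minus 0 Gy, log2, horizontal axis) for every probe of the 9 C3 and A2M targets (rows). Each circle is a probe, filled where all 3 pools at 5 Gy were below all 3 controls, and the black bar is the median of the target's probes. Probes of c3a.6 lie on both sides of 0, while all 11 of c3a.2 and all 36 of the A2M targets lie below it.

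After removal of group means, same-numbered pools correlated across all targets at 0.150, 0.239 and 0.497 for pools 1, 2 and 3. For 0 Gy pool 1 and 5 Gy pool 2 the value was 0.166, so pair 1 did not stand out from differently numbered pools. The difference within each pair was also taken, although the pairing is not established. All 7 selected targets and c3a.2 were lower at 5 Gy in each of the 3 pairs, where 15.2% of all targets were, and 53.4% had a ratio below 0. For the 7 this was fixed by groups that did not overlap, so it carries no further weight. The median difference of the 7 was -1.20 in pair 1, -1.05 in pair 2 and -0.67 in pair 3. Pair 3 was the smallest in 6 of them, down to -0.25 for ZV700S00004002, and the exception was OTTDART00000013205, with -1.08 in pair 3 and -0.46 in pair 2. OTTDART00000023872 was the steadiest, at -1.20, -1.04 and -0.89 in pairs 1, 2 and 3. In c3a.2 the differences were -1.28, -0.25 and -0.83, with pair 2 the smallest. In c3a.6 they were 0.22, 0.08 and -0.56, of both signs. When the methods' t-test was run on pairs, 3 of the 7 selected targets kept their call (OTTDART00000013205, OTTDART00000023872 and TC246970), where 0.484% of all targets passed in the lower direction. The 7 had been selected on the same pools, so that count is descriptive.

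**Figure D3:**
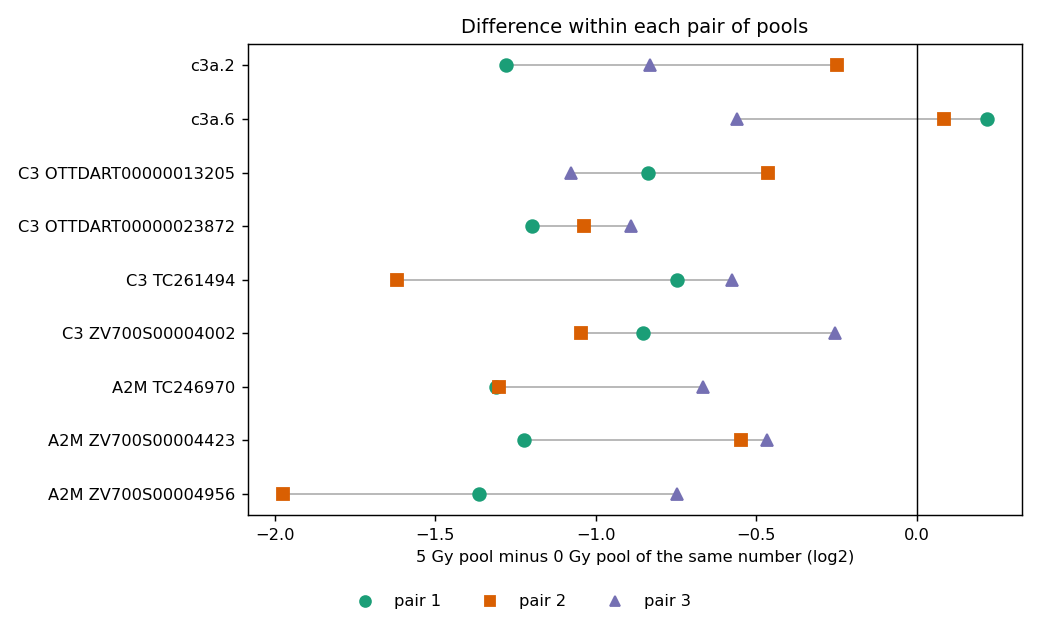
Difference within each pair, 5 Gy pool minus same-numbered 0 Gy pool (log2, horizontal axis), for each C3 and A2M target (rows), with a symbol for each of the 3 pairs. In 8 rows all 3 pairs lie below 0, and c3a.6 is the exception. The symbols of pairs 1 and 2 coincide for A2M TC246970.

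The mean profile of the selected targets over the 6 pools is given as a description, since the difference between these groups had chosen them. After each target was centred on its mean over the 6 pools, the C3 targets averaged -0.51, -0.49 and -0.33 in 5 Gy pools 1, 2 and 3, and 0.40, 0.55 and 0.37 in 0 Gy pools. The A2M targets averaged -0.67, -0.72 and -0.21 in 5 Gy pools, and 0.62, 0.56 and 0.42 in 0 Gy pools. In both sets 5 Gy pool 3 was the 5 Gy pool nearest to the controls.

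Relatives of A2M in the thioester family were named by the study too, and their values had the same selection. TC247070, a target listed by a cDNA name (AK123592) and as A2ML1, an A2M-like protease inhibitor, measured 8.67, 8.17 and 8.80 in 5 Gy pools, and 9.71, 9.61 and 9.37 in 0 Gy pools. The groups were apart, with a log2 ratio of -1.01 (SE 0.291, n = 3 pools each), a size within the range of the A2M targets. The 2 targets named CD109, a cell surface member of the family that in mammals binds transforming growth factor beta, lay in the other direction. ENSDART00000085574 measured 9.94, 9.72 and 9.29 in 5 Gy pools, and 8.48, 9.13 and 9.02 in 0 Gy pools, a log2 ratio of 0.77 (SE 0.315). ENSDART00000085567 measured 7.84, 7.70 and 7.46 in 5 Gy pools, and 7.14, 7.10 and 7.01 in 0 Gy pools. Its log2 ratio of 0.58 (SE 0.262) fell just short of 0.585, and its 95% interval from limma (-0.02 to 1.19) includes 0. It therefore missed both thresholds of a call in limma. It was called in 3 of 16 other settings, namely median centring (0.63), the mean of probes (0.86) and the median of probes (1.47). In the other 13 it was not called. ENSDART00000085574 lost its call in 8 of 16 other settings, at 0.57 to 0.77. In both CD109 targets pool 1 was the highest at 5 Gy and the groups did not overlap, which 7.49% of all targets showed in either direction. ITIH3, an inter-alpha-trypsin inhibitor chain of plasma picked after its values were seen, had a selected log2 ratio of -0.86 (SE 0.323) with -0.08 in pair 3. LCAT, a plasma enzyme of cholesterol esterification also picked after its values were seen, lay in the other direction, with a log2 ratio of 0.75 (SE 0.316). LCAT is in the study's list of altered targets, so the study's own test had selected it on these pools. Here it was called in limma, but not when the methods' t-test was rerun on the values summarised by median polish.

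The rest of the complement cascade was hardly measured by named targets. Of 66 other complement symbols listed, 5 had a target under a zebrafish symbol, and none of the further C3, C4, C5 and A2M family symbols listed had one. None of the 5 was called or had an unadjusted p under 0.05 in limma, in the blocked fit or in the methods' t-test, and 2 of them had a ratio below 0. Their median log2 ratio was 0.15, beside -0.03 for all targets. That median is the value of c1qbp, whose product is mainly a mitochondrial protein, so it gives no direction for the cascade. Among genes that start the cascade, c1r, a protease of the first component, had a ratio of 0.29 (SE 0.300, exact permutation p = 0.3) at a level among the dimmest 25% of targets. The other starter was crp4, a C-reactive protein gene whose product in mammals can bind the first component, with a ratio of 0.31 (SE 0.285, exact permutation p = 0.2).

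cfbl, a factor B gene of the alternative pathway, whose product pairs with the large C3 fragment to cleave more C3, measured 6.57, 7.21 and 6.98 in 5 Gy pools, and 7.22, 7.83 and 6.71 in 0 Gy pools. Pair 3 ran against the other pairs and the groups overlapped, with a ratio of -0.33 (SE 0.360, exact permutation p = 0.4, two-sided as for all genes here). c8a, a subunit of the membrane attack complex at the end of the cascade, measured 10.68, 9.44 and 9.83 in 5 Gy pools, and 10.31, 10.84 and 10.30 in 0 Gy pools. The groups of c8a overlapped through 5 Gy pool 1, and its ratio was -0.50 (SE 0.378, 95% interval -1.37 to 0.37, exact permutation p = 0.3). That interval includes the ratios of all 4 selected C3 targets, which were chosen on these pools partly for their size, so nothing is concluded from it. Without 5 Gy pool 1 c8a was called in limma, at a ratio of -0.85, where 1671 of all 37157 targets passed. Without 5 Gy pool 2 the ratio of c8a was -0.23. With single pools left out the ratio of cfbl lay between -0.60 and -0.04, and it was not called. c1qbp, whose product binds the first component but is mainly a mitochondrial protein, had a ratio of 0.15 (SE 0.288, exact permutation p = 0.7).

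**Figure D4:**
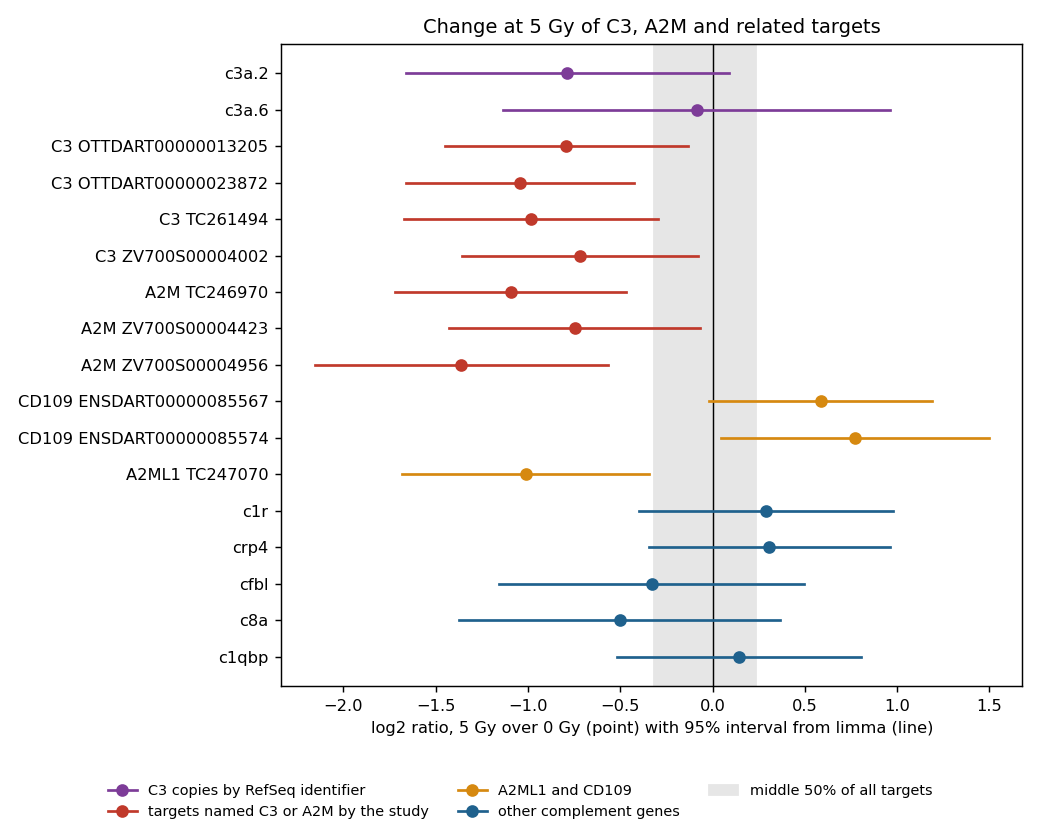
Log2 ratio of 5 Gy over 0 Gy (point) with its 95% interval from limma (line) for the C3 copies with a RefSeq identifier, the targets the study named C3 or A2M, the A2M relatives it named, and the other complement genes with a target. The grey band holds the middle 50% of all targets. The intervals of the 7 selected C3 and A2M targets lie below 0, for values that had chosen them, and those of c3a.2, c3a.6 and the 5 other complement genes include 0.

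Genes of plasma, inflammation and the cell types that make or respond to complement gave the setting. The lists were matched by zebrafish symbol, so targets named only in the study's list of altered targets were left out. Examples of names in that list are IL6R, NOD2, CXCL12, KDR and ELA1. Over the complement lists and these further lists, 33 targets matched a symbol among 297 listed, and none was called or had an unadjusted p under 0.05 in limma or the methods' t-test. Their median log2 ratio was 0.01, and 16 had a ratio below 0. With the replicate block 3 were called in limma, namely gc, f10 and clec14a, where 8.81% of all targets passed, and none of the 33 passed when the methods' t-test was run on pairs. Without 0 Gy pool 3 there were 7 calls, where 7126 of all 37157 targets passed. Groups did not overlap for 5, where 7.49% of all targets did not overlap and 4.7% were lower, namely lower for gc, ctrb.3, prss59.1 and il1rapl1a and higher for fabp1b.1.

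Of 3 measured liver and plasma genes, gc, the plasma carrier of vitamin D, measured 12.64, 9.40 and 11.88 in 5 Gy pools, and 12.85, 12.85 and 12.84 in 0 Gy pools. The controls were almost identical and 5 Gy pool 2 was far lower, so the ratio of -1.54 had an SE of 0.728 and did not pass in limma (adjusted p = 0.905), but passed at the unadjusted threshold with the block (adjusted p = 0.567). Without 5 Gy pool 2 the ratio of gc was -0.58. 5 Gy pool 2 was also the lowest pool of the A2M target ZV700S00004956, of the C3 target TC261494 and, narrowly, of the C3 target ZV700S00004002. In the other selected C3 and A2M targets 5 Gy pool 1 was the lowest, and 5 Gy pool 2 was the highest 5 Gy pool of c3a.2. hamp, the hormone of iron control, had a ratio of 0.43 (SE 0.386) and was dim. The 6 coagulation genes had a median log2 ratio of 0.16 (range -0.41 to 1.23), with 2 below 0, so the list had no common direction. The genes named, f10 and pros1, had the smallest p-values and also the highest ratios. f10, the protease that activates prothrombin, measured 10.49, 10.34 and 11.21 in 5 Gy pools, and 8.50, 8.30 and 11.54 in 0 Gy pools. 0 Gy pool 3 stood apart from the other controls, and the ratio of 1.23 (SE 0.795) did not pass in limma but did with the block (adjusted p = 0.567), and it was 2.28 without that pool. pros1, the cofactor protein S, which in mammals also binds a regulator of complement, had a ratio of 0.79 (SE 0.468) and was called in limma without 5 Gy pool 2 or 0 Gy pool 3 (1.16 each, lowest 0.43 without 5 Gy pool 1).

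Among 7 targets of the inflammation and acute phase list, the smallest p-values belonged to il1rapl1a (ratio -0.70, SE 0.353) and rela, a subunit of NF-kB (ratio 0.86, SE 0.630). Neither passed in limma. il1rapl1a was listed as a member of the interleukin receptor family, and a part of it in inflammation was not tested. Without 0 Gy pool 3 rela was called, at 1.65, and without 0 Gy pool 2 it was 0.46. Leukocyte markers were measured by 5 targets, 2 of them fixed markers. Of these spi1b, a myeloid transcription factor, had a ratio of -0.49 (SE 0.421) and csf1ra, a macrophage receptor, had -0.01 (SE 0.266). runx1, a transcription factor of blood stem cells, had 0.71 (SE 0.620), with 0 Gy pool 3 above all others. Without 0 Gy pool 3 both spi1b (-0.95) and runx1 (1.48) were called in limma, and the ratios nearest 0 were -0.25 for spi1b (without 0 Gy pool 2) and 0.27 for runx1 (without 0 Gy pool 1). Both exocrine pancreas targets were at -0.66 (SE 0.324) for ctrb.3, a chymotrypsinogen, and -0.16 (SE 0.254) for prss59.1, a serine protease. In intestine, fabp1b.1, a fatty acid binding protein, had 0.59 (SE 0.328) and cdx1b, a gut homeobox factor, had 0.36 (SE 0.319). In endothelium, clec14a, a surface lectin which passed in limma with the block (adjusted p = 0.567) but not without it, had -0.80 (SE 0.412) and egfl7, a secreted vessel protein, had 0.48 (SE 0.345). Without 0 Gy pool 3 clec14a was at -1.25. The marker cdh5, an adhesion protein of vessel walls, had -0.55 (SE 0.398) and kdr, a growth factor receptor, had -0.16 (SE 0.351). Thus 3 of the 4 endothelium targets were below 0, where 53.4% of all targets were. The study's list of altered targets holds another target named KDR, given there as lower at 5 Gy, which the match by symbol left out. The part of any of these tissues in the C3 and A2M values was not tested.

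The targets whose profile over the 6 pools was most like the mean of the 4 selected C3 targets were sought among 2937 named targets, by the mean absolute difference of centred log2 values. The 5 nearest were HOOK1, a linker to microtubules (0.0747), PANX2, a pannexin channel (0.0756), pank1b, a pantothenate kinase (0.0960), ZBED4, a zinc finger protein (0.119), and AFF2 (0.130). All 5 are in the list of altered targets, so that they had been selected on the same pools. Their log2 ratios lay between -0.88 for HOOK1 and -0.62 for AFF2, and AFF2 lost its call in limma with the replicate block. The A2M targets stood at 0.134 (TC246970), 0.186 (ZV700S00004423) and 0.287 (ZV700S00004956) from this profile. c3a.2 stood at 0.349, which would place it at rank 555, and c3a.6 stood at 0.613, and these distances carry no test, since the selected targets share the group difference that chose them.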

How the data were processed

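RNA of whole larvae was measured in 3 pools at 5 Gy and 3 at 0 Gy. The authors read the arrays with NimbleScan and applied quantile normalization, and the deposited file holds linear intensity values of 385000 single probes per array. RMA is named in the submitters' processing notes with no version, and whether background was subtracted is not given in the sources used here. The 6 columns were used and 0 were left out. Each target's probes were summarised on the log2 scale by median polish (tolerance 0.01, at most 10 iterations). Comparison of the groups used limma 3.58.1 (lmFit, eBayes; R 4.3.3 and the data.table package, version 1.17.8), no covariate, and Benjamini-Hochberg over all 37157 targets. The fit and its calls at unadjusted p were checked on simulated data. The methods' t-test was run beside it with the same thresholds, which define a call as an unadjusted p under 0.05 with a log2 change of 0.585 or more. The number of arrays limits the precision.

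The members and the gene lists were chosen with earlier results of these data known. Names came from RefSeq identifiers, or from a table of genes per probe where those gave no symbol. A zebrafish symbol was held by 2663 targets, and 3055 targets had a RefSeq mRNA identifier. Other names came from the study's list of 609 altered targets, all found on the array. The ratios and p-values in that list were not used in any fit or count. The text names all members, A2ML1 and CD109, up to 4 genes per complement list and 2 per other list by smallest p, and the 5 nearest profiles. csf1ra and cdh5 are chosen markers outside that rule, and kdr, ITIH3 and LCAT were picked after their values were seen.

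The methods state separate clutches for the replicates, without saying whether same-numbered pools of both groups share a clutch. After removal of group means the same-numbered pools correlated at 0.150, 0.239 and 0.497, all above 0.1, the limit set for a blocked fit. A blocked fit by replicate number therefore stands beside each result whose call it alters. For 0 Gy pool 1 and 5 Gy pool 2, of different numbers, the value was 0.166, so these correlations do not establish a shared clutch.

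Other settings were that block, a second quantile normalization, median centring, mean or median of probes, omission of the dimmest 25% of targets (mean below 6.97), an eBayes trend, array weights, the methods' t-test plain and paired, and omission of single pools.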

Additional observations from a re-analysis of the deposited data

How the results depend on the processing

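The ratio of c3a.6 turned to 0.57 with array weights, 0.08 without 5 Gy pool 2 and 0.40 without 0 Gy pool 3, and lay between -0.33 and 0.40 over the 6 fits that left out a pool. c3a.2 kept its direction under every setting tried and passed the thresholds with the replicate block (-0.79), the median of probes (-0.92) and array weights (-1.22), and without 5 Gy pool 2 (-1.13) or 0 Gy pool 3 (-0.999), in a range of -1.13 to -0.55 over the left-out pools. The median of the 7 selected targets was -0.83 with the mean of probes and lay between -1.13 and -0.85 with a pool left out. Of the 7, 4 were called with the median of probes, 3 in the paired test by replicate block, 5 with array weights, and 4 to 7 with a pool left out (4 without 5 Gy pool 1, 0 Gy pool 1 or 0 Gy pool 2). ZV700S00004423 and ZV700S00004002 were lost most often, and OTTDART00000023872 and TC246970 never.

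Over all targets 1500 were called, but 3272 with the replicate block, 10913 with array weights, 569 by the methods' t-test and 341 in its paired form. With a pool left out the count was 308 to 7126 (308 without 0 Gy pool 1, 310 without 0 Gy pool 2, 7126 without 0 Gy pool 3 and 895 without 5 Gy pool 2). The count was 1671 without 5 Gy pool 1, 1555 with a second quantile normalization and 1547 with the eBayes trend. Of the 33 list targets none was called in the fit reported, against 3 with the replicate block, 1 with a second quantile normalization (ctrb.3), 1 with the median of probes (gc), 3 with the eBayes trend (ctrb.3, fabp1b.1 and gc), 11 with array weights, and 0 to 7 with a pool left out (7 without 0 Gy pool 3). c1qbp turned to -0.047 without 5 Gy pool 1 (range -0.047 to 0.30). The causes were not tested. Fits that left out a pool kept 2 pools in 1 group, and 3 pools per group limit what could be resolved.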
